A study of Rattus norvegicus with 6 samples.

Results

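*Acta2*, *Myh11*, *Tagln*, *Cnn1*, *Des*, *Pdgfrb*, *Itga8* and *Rgs5* are 8 genes by which vascular smooth muscle cells, pericytes and mesangial cells are commonly recognized. They were chosen by name as marker genes, and all 8 were found among the 17051 genes of the series, each with 1 transcript and with counts in all 6 rats. Their RNA was measured in kidney tissue of male Sprague Dawley rats by poly(A)-selected RNA sequencing. The AL group (rats 61, 71 and 88) ate normal chow freely, and the HD group (rats 64, 67 and 69) received a hyperammonemic diet, an amino acid mixture of 3 g per kg body weight per day for 7 days. All rats were of the same strain and sex, no genetic change is given for any of them, and each rat was 1 library. The portion of the kidney sampled for sequencing and the age of the rats are not given in the sources used here.

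Smooth muscle cells form the wall of the renal arteries and arterioles, where shortening of actin filaments along myosin narrows the vessel. Pericytes hold on to the capillaries of the medulla and cortex, and mesangial cells occupy the core of the glomerulus between its capillary loops. Pericytes and mesangial cells rely on platelet-derived growth factor from the endothelium for their recruitment. The contractile genes are driven by serum response factor and its partner myocardin, which act through short DNA elements called CArG boxes.

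The level of a gene in a rat is given as CPM, its estimated count scaled to the size of the library after TMM normalization, which makes libraries comparable. Total estimated counts lay between 12499945 in rat 64 and 30466461 in rat 69, so that rat 69, which stands apart in many of these results, also had the deepest library. *Tagln* had at least 226 counts in every rat, whereas *Cnn1* had 4 counts in rat 61 and *Rgs5* had 13 in rat 64. The precision of low values of these genes is limited accordingly. In bulk tissue, a smaller number of cells of a type and less RNA per cell cannot be told apart.

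Promoter sequence is shown for *Acta2*, *Cnn1* and *Des*, which had similar patterns over the rats, because the CArG box is the element through which the contractile genes are known to be driven. The windows run from 250 bases before to 50 bases after the annotated start and come from RefSeq, build GRCr8, which held such a window for 5 of the 8 genes. The *Acta2* window is chr1:241172454-241172753 on the minus strand, that of *Cnn1* is chr8:28908187-28908486 on the plus strand, and that of *Des* is chr9:84299376-84299675 on the plus strand. Capitals mark CArG-like elements (CC, then 6 bases of which at least 5 are A or T, then GG) and E-boxes (CANNTG), both of which are patterns that read the same on either strand. No CArG-like element overlapped an E-box.
Acta2: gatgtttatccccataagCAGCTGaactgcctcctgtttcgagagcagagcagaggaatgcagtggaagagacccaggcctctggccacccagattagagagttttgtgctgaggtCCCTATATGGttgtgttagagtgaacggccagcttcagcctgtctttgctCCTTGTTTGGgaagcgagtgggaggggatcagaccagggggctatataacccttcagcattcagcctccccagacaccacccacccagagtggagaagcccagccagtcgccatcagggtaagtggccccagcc
Cnn1: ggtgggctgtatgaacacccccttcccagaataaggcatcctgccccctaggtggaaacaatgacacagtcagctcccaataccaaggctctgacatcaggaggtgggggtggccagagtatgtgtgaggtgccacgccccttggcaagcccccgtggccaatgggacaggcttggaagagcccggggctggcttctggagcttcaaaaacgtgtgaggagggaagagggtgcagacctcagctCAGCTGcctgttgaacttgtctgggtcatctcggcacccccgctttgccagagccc
Des: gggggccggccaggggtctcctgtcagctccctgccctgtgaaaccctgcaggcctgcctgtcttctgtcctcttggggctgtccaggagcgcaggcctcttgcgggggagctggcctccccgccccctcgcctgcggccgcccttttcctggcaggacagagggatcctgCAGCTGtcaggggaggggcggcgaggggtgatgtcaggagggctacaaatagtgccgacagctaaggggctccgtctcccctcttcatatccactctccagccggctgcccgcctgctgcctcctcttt
The *Acta2* window held 2 CArG-like elements, CCCTATATGG starting 134 bases and CCTTGTTTGG starting 84 bases before the start. At least 1 such element was present in 9.42% of the 33469 windows of this length and at least 2 were present in 0.846%. The windows of *Cnn1*, *Des*, *Itga8* and *Rgs5* held none. The E-box CAGCTG was found once each in the windows of *Acta2*, *Cnn1* and *Des*, and 72.1% of all windows held an E-box of some kind. These matches describe the letters only and were not tested for binding.

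None of the 8 genes separated the AL group from the HD group. In edgeR's quasi-likelihood test, 0 of the 8 passed an adjusted *P* value of 0.05, as did 0 of the 11553 genes tested (0.0%). By DESeq2, 0 of the 8 passed, against 182 of all genes (1.58%). Before adjustment, edgeR gave *P* below 0.05 for 1 of the 8, *Pdgfrb*, which was lower in the HD group, while 5.94% of the genes tested were lower at that limit and 4.66% were higher. The values of the AL and HD rats overlapped for 8 of 8 genes, while 7.25% of all genes did not overlap and were higher in the HD group and 7.01% did not overlap and were lower. Of the 8 log2 fold changes, 4 were above and 4 below 0, with a median of 0.013 beside a median of 0.0067 over all genes.

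What varied was the individual rat. Rat 69 had the highest level of the HD group for 8 of 8 genes, and rat 61 had the lowest level of the AL group for 8 of 8. Summed over the 8 genes, the AL rats had 77.6 CPM (rat 61), 189 CPM (rat 71) and 199 CPM (rat 88), and the HD rats had 69.3 CPM (rat 64), 76.6 CPM (rat 67) and 339 CPM (rat 69). Each group therefore held rats with little and rats with much of this RNA, and the spread inside a group was wider than the distance between the groups.

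**Figure D1:**
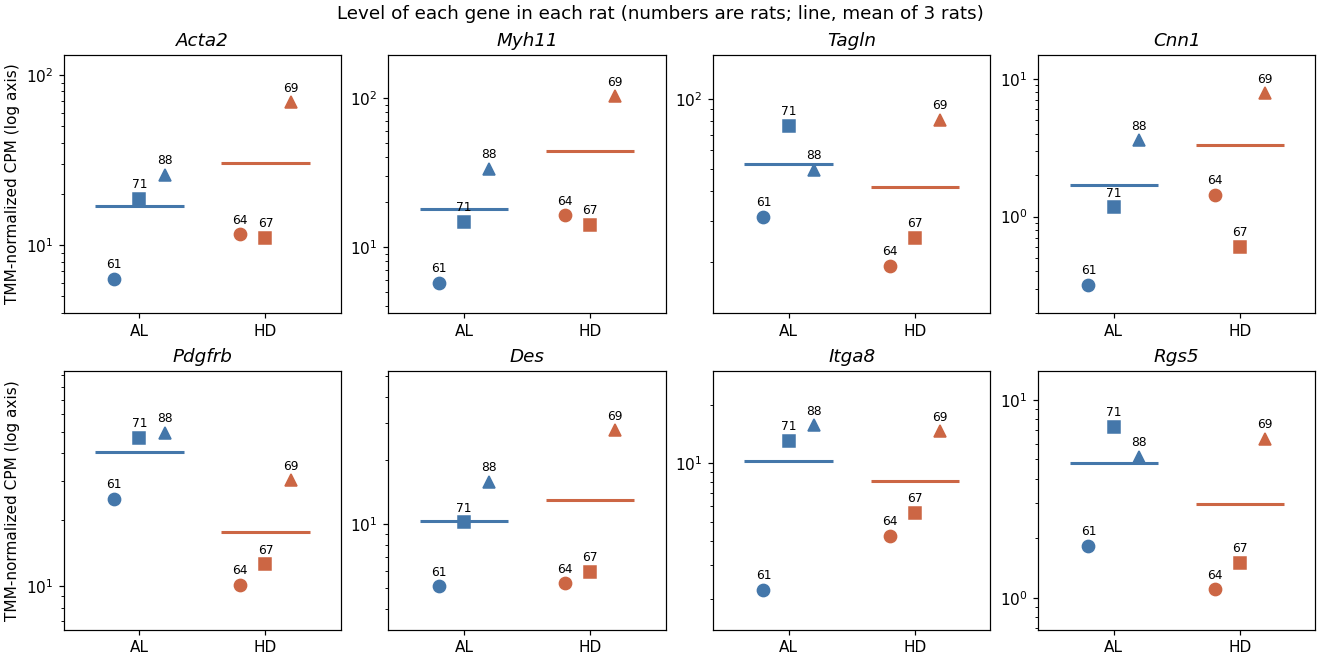
Level of each of the 8 genes in each rat, as TMM-normalized CPM on a log axis, with AL rats in blue, HD rats in orange, rat numbers above the points and the mean of 3 rats as a line. Rat 69 is the highest HD point and rat 61 the lowest AL point in every panel, and the groups overlap in every panel.

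Among the contractile genes, *Acta2* encodes smooth muscle alpha-actin, the filament protein of the contractile apparatus, and lies on rn5 chromosome 1 (259760521 to 259773301, minus strand, 10 exons). Its level was 6.35, 18.7 and 25.9 CPM in rats 61, 71 and 88 of the AL group and 11.5, 11.04 and 69.0 CPM in rats 64, 67 and 69 of the HD group. The other HD rats lay inside the range of the AL rats, and rat 69 alone lay above it, at 2.66 times the next highest rat. The log2 fold change (HD minus AL) was 0.86 with a standard error of 0.79, and it did not pass edgeR's test (adjusted *P* = 0.766). Actin genes share nearly identical coding sequence, so the way in which reads were divided between *Acta2* and its relatives is uncertain.

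*Myh11*, the smooth muscle myosin heavy chain that pulls on those filaments, lies on rn5 chromosome 10 (11444267 to 11538406, plus strand, 41 exons). It was measured at 5.72, 14.6 and 33.6 CPM in rats 61, 71 and 88 and at 16.3, 14.0 and 102 CPM in rats 64, 67 and 69. Rat 69 again stood alone, at 3.05 times the next highest rat, and the other HD rats lay close to rat 71. With a log2 fold change of 1.31 and a standard error of 0.88, *Myh11* had the highest value of the 8 genes, and it did not pass (edgeR adjusted *P* = 0.659).

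*Cnn1* encodes calponin, an actin-binding protein that restrains the myosin motor, and lies on rn5 chromosome 8 (23167870 to 23176532, plus strand, 7 exons). Its level was 0.32, 1.16 and 3.57 CPM in the AL rats 61, 71 and 88 and 1.44, 0.60 and 7.83 CPM in the HD rats 64, 67 and 69. It was the most variable of the 8, with a highest rat 24.7 times above the lowest, although the low end rests on 4 counts. Its log2 fold change of 0.99 was smaller than the standard error of 1.04 (edgeR adjusted *P* = 0.803).

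*Tagln* encodes transgelin (SM22), a small protein that cross-links actin, and its levels were spread over the rats in another way than those of the 3 other contractile genes. It lies on rn5 chromosome 8 (48847364 to 48852838, minus strand, 5 exons), and its level was 31.1, 76.7 and 49.6 CPM in rats 61, 71 and 88 and 19.2, 25.3 and 81.2 CPM in rats 64, 67 and 69. Rat 69 was level with rat 71 (1.06 times), and rats 64 and 67 were below all AL rats. For *Tagln*, the log2 fold change was -0.32 with a standard error of 0.56 (edgeR adjusted *P* = 0.896).

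*Des* encodes desmin, the intermediate filament that ties the contractile units together in muscle and is also made by mesangial cells and pericytes. It lies on rn5 chromosome 9 (82325843 to 82333548, plus strand, 9 exons), with 5.08, 10.2 and 15.8 CPM in rats 61, 71 and 88 and 5.26, 5.95 and 27.8 CPM in rats 64, 67 and 69. Rats 61, 64 and 67 were low and close together, and rat 69 was 1.75 times the next highest. Its log2 fold change was 0.34 with a standard error of 0.69 (edgeR adjusted *P* = 0.912). *Des* is also a gene of striated muscle. Of 22 striated muscle markers in the files, 15 were below the minimum count, with *Myl2* at 0 in every rat and *Ckm* at no more than 0.28 CPM. Of the 7 tested, 6 were above 0 (median log2 fold change 1.36), but some of the 7 reached the minimum count through rat 69 alone. Without rat 69, 5 reached it, with 1 below 0 and a median of 0.37. The summed level of the 22 markers was 46.7 to 94.4 CPM in the AL rats and 81.5 to 93.0 CPM in the HD rats. Without *Casq1*, the most abundant, the sum was 13.5 to 16.5 against 29.0 to 55.5 CPM. The 3 unadjusted edgeR calls were *Tnnc1*, *Pgam2* and *Mb*, all higher in the HD group. *Mb* reached the minimum count in rat 69 alone and *Pgam2* in HD rats alone, so the filter itself favoured that direction for both. *Mb* was near the floor, at 0, 0 and 0.066 CPM in rats 61, 71 and 88 and 0.085, 0.70 and 1.215 CPM in rats 64, 67 and 69. *Mb* did not pass DESeq2's test (adjusted *P* = 0.156), whereas *Tnnc1* (adjusted *P* = 4.5e-14) and *Pgam2* (adjusted *P* = 0.031) did. *Tnnc1*, the troponin C of slow and cardiac muscle, had 1.83, 2.38 and 1.19 CPM in rats 61, 71 and 88 and 13.6, 15.9 and 28.4 CPM in rats 64, 67 and 69. It was higher in all HD rats than in any AL rat, whereas *Des* overlapped, and the part of striated muscle RNA in the level of *Des* was not tested.

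Among the receptors, *Pdgfrb*, the receptor for platelet-derived growth factor B on pericytes and mesangial cells, came closest to a difference between the diets. It lies on rn5 chromosome 18 (55596758 to 55637692, plus strand, 23 exons). Its level was 24.9, 47.1 and 49.4 CPM in rats 61, 71 and 88 of the AL group, and 10.2, 12.6 and 30.2 CPM in rats 64, 67 and 69 of the HD group. Rats 64 and 67 were below every AL rat, and rat 69 was above rat 61, so the groups overlapped through that pair of rats alone. The mean was 40.5 ± 13.5 CPM in the AL group and 17.6 ± 10.9 CPM in the HD group (SD, n = 3). The log2 fold change was -1.18 with a standard error of 0.44. This passed neither edgeR's test (adjusted *P* = 0.422, unadjusted 0.029) nor DESeq2's (adjusted *P* = 0.127), and the two-sided exact permutation test gave *P* = 0.2, where 0.1 is the smallest value that 3 rats against 3 allow.

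*Itga8* encodes integrin alpha 8, the mesangial cell's receptor for nephronectin and other matrix proteins, and lies on rn5 chromosome 17 (80956111 to 81304978, minus strand, 30 exons). It was measured at 2.22, 13.0 and 15.7 CPM in rats 61, 71 and 88 and at 4.24, 5.55 and 14.6 CPM in rats 64, 67 and 69. Rat 69 was in the range of rats 71 and 88, and rat 61 was the lowest of the 6. In the comparison of the diets its log2 fold change was -0.33 with a standard error of 0.70 (edgeR adjusted *P* = 0.919).

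*Rgs5*, a regulator of G protein signalling that dampens vasoconstrictor receptors in pericytes, lies on rn5 chromosome 13 (92595346 to 92631357, plus strand, 5 exons). Its level was 1.83, 7.32 and 5.16 CPM in rats 61, 71 and 88 and 1.104, 1.499 and 6.33 CPM in rats 64, 67 and 69. Rats 64 and 67 were below all AL rats, while rat 69 lay between rats 88 and 71. Its log2 fold change was -0.64 with a standard error of 0.73 (edgeR adjusted *P* = 0.826).

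The exact permutation tests of the other 7 genes gave *P* values between 0.4 and 0.9. Rat 69 was the highest HD rat for 8 of 8 genes, so leaving it out lowers each HD mean by construction. Without rat 69, the log2 fold change was below 0 for 8 of 8 genes and for 47.9% of the 11212 genes then tested. The median was -0.98 for the 8 and 0.015 for all. Shares over all genes are no like background here, because rat 69 was not picked as the highest rat of those genes. *Acta2* then had a log2 fold change of -0.59, *Myh11* -0.25, *Cnn1* -0.77 and *Des* -0.88, and these 4 were reversed. *Tagln* had -1.23, *Pdgfrb* -1.82 and *Rgs5* -1.86, and these were the 3 genes with an unadjusted edgeR *P* value below 0.05, against 9.35% of all genes called lower. None of the 8 passed after adjustment (edgeR adjusted *P* between 0.177 and 0.885). Leaving out any rat but 69 left *Acta2*, *Myh11*, *Cnn1* and *Des* above 0, and *Pdgfrb* and *Rgs5* stayed below 0 whichever rat was left out.

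**Figure D2:**
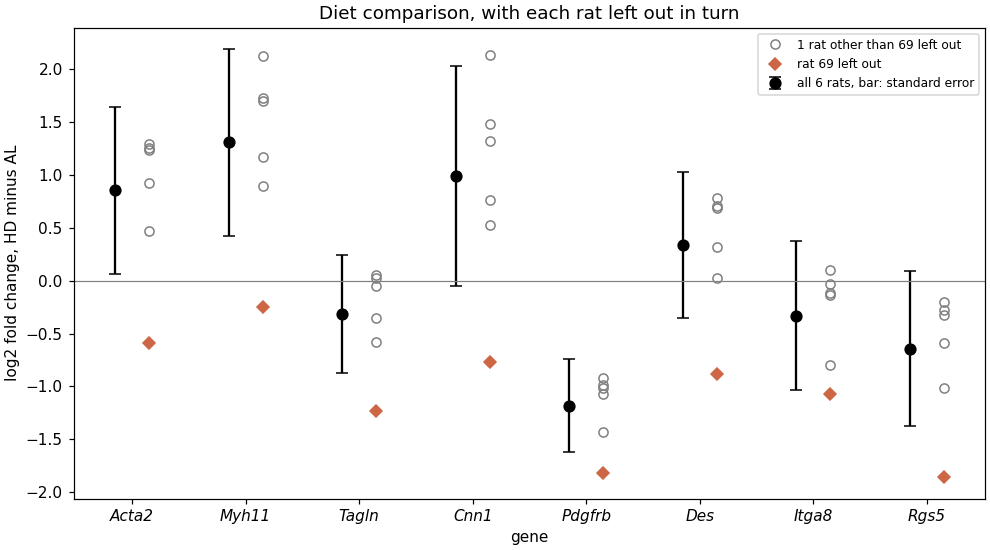
Log2 fold change (HD minus AL) of each gene from edgeR, with all 6 rats as black points with standard errors, 1 rat other than rat 69 left out as open circles, and rat 69 left out as diamonds. The diamond is the lowest value for each gene and lies below 0 for all 8, while the black points lie on both sides of 0. Rat 69 was the highest HD rat for 8 of 8 genes, so leaving it out lowers each value by construction.

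Compared per length, as TPM (RSEM's abundance unit, corrected for the length of each transcript and summed per gene), the genes followed a wide order. The mean over 6 rats was 74.4 TPM for *Tagln*, 28.0 for *Acta2*, 12.5 for *Rgs5*, 8.65 for *Des*, 8.56 for *Pdgfrb*, 7.46 for *Myh11*, 2.79 for *Cnn1* and 2.50 TPM for *Itga8*. *Tagln* was above *Acta2* in 6 of 6 rats and *Myh11* was above *Cnn1* in 6 of 6, and *Acta2* was above *Rgs5* in 5. The remaining neighbours exchanged places, with *Rgs5* above *Des* in 4 rats, *Des* above *Pdgfrb* in 3, *Pdgfrb* above *Myh11* in 4 and *Cnn1* above *Itga8* in 2, so their levels did not differ beyond the spread between rats. The *Rgs5* transcript in the files has 546 bases, and its TPM rests on that length.

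The 8 genes did not all share a single pattern over the rats. Likeness of patterns was taken as the root mean square, over the 6 rats, of the difference between centred log2 levels, so that 0 means identical patterns. The closest pair was *Tagln* and *Rgs5* (0.22), followed by *Myh11* and *Cnn1* (0.30), *Acta2* and *Des* (0.31), *Acta2* and *Cnn1* (0.33) and *Acta2* and *Myh11* (0.33). *Pdgfrb* was closest to *Rgs5* (0.41), and the most distant pair was *Myh11* and *Pdgfrb* (1.30). In *Acta2*, *Myh11*, *Cnn1* and *Des* rat 69 stood well above every other rat, and in *Tagln*, *Rgs5*, *Pdgfrb* and *Itga8* rat 71 or 88 was higher than or close to it. These distances describe the same 6 libraries and carry no test.

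**Figure D3:**
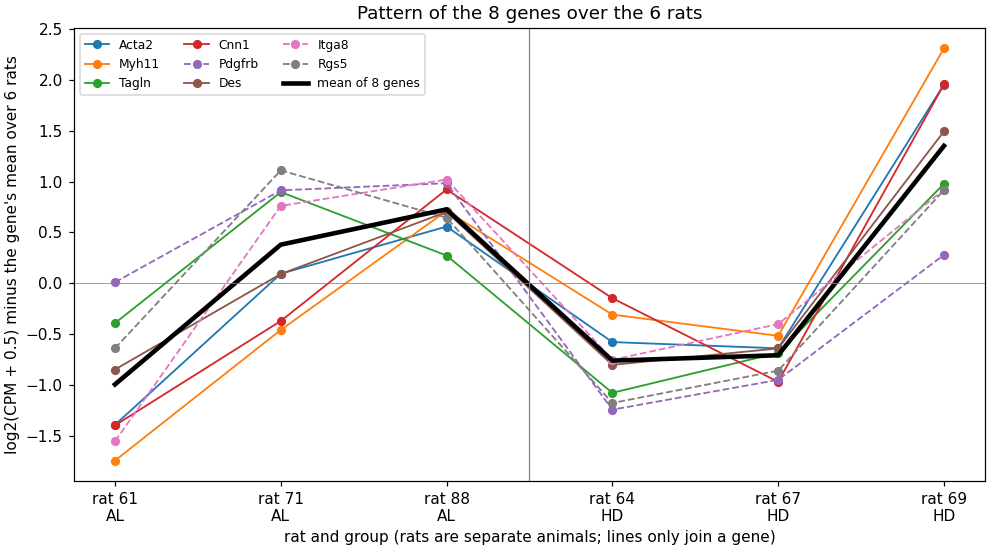
Centred log2 level of each gene (vertical axis, log2 of CPM plus 0.5 centred on the mean of that gene) in each rat (horizontal axis, AL left and HD right), with the mean of the 8 genes in black. The mean runs from -0.99 in rat 61 to 1.35 in rat 69, and *Myh11* and *Pdgfrb* lie farthest apart.

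Other genes were set against the mean pattern of the 8, and the 6 most alike among 11264 genes were *Efnb2* (distance 0.22), *Ces1e* (0.23), *Ehd3* (0.24), *Lyve1* (0.27), *Scrn1* (0.27) and *Entpd1* (0.27), beside a median distance of 0.90. *Efnb2* encodes ephrin-B2, a surface ligand of arterial endothelium, and *Lyve1* a hyaluronan receptor of lymphatic endothelium. *Efnb2* was measured at 0.79, 2.61 and 3.51 CPM in rats 61, 71 and 88 and at 1.19, 1.25 and 4.09 CPM in rats 64, 67 and 69. *Ehd3*, a membrane traffic gene, was measured at 12.4, 32.8 and 34.7 CPM in the AL rats and at 15.5, 16.7 and 43.8 CPM in the HD rats. In both genes, as in the mean of the 8, rats 61, 64 and 67 were low and rats 71, 88 and 69 were high.

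Each gene was also divided by *Pdgfrb* in the same rat, a comparison chosen after the values had been seen and given without a test. The ratio was higher in all HD rats than in any AL rat for 5 of the 7 genes, and the same held for 24.1% of all genes set against *Pdgfrb*, whose level enters every ratio. The ratio of *Acta2* to *Pdgfrb* in TPM was 1.02, 1.59 and 2.10 in rats 61, 71 and 88 and 4.55, 3.51 and 9.17 in rats 64, 67 and 69. The ratio of *Myh11* to *Pdgfrb* was 0.19, 0.25 and 0.56 in the AL rats and 1.31, 0.91 and 2.78 in the HD rats. For both genes all HD rats stood above all AL rats. *Tagln*, *Des* and *Itga8* did not overlap either, and *Cnn1* and *Rgs5* did.

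**Figure D4:**
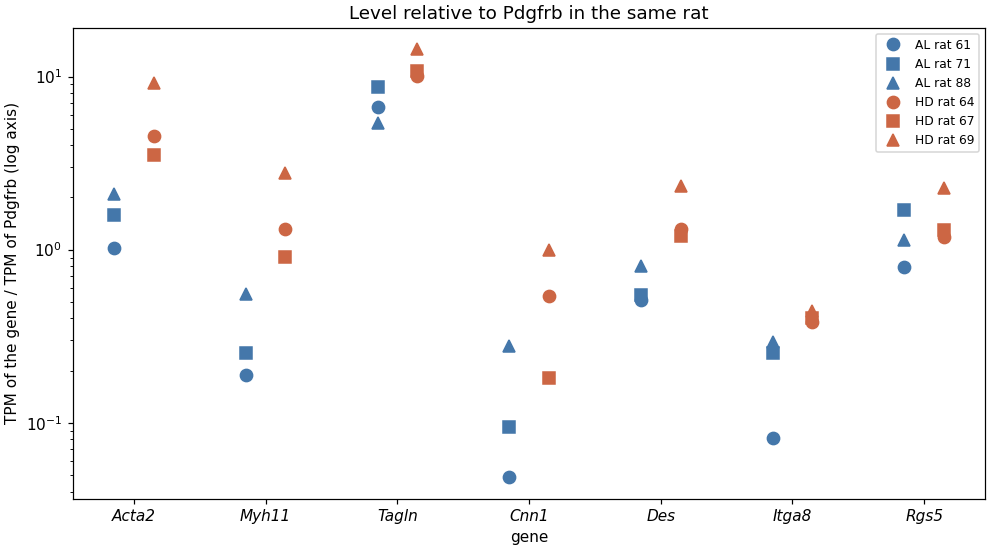
TPM of each gene divided by TPM of *Pdgfrb* in the same rat, on a log axis, with AL rats in blue and HD rats in orange. The HD points lie above all AL points for *Acta2*, *Myh11*, *Tagln*, *Des* and *Itga8*, and the groups overlap for *Cnn1* and *Rgs5*.

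Further genes of the same cells were read from lists. Of 27 other contractile smooth muscle genes tested, 9 had a log2 fold change above and 18 below 0 (median -0.14), with 0 adjusted edgeR calls and 1 unadjusted call. That was *Aoc3*, an amine oxidase on the surface of smooth muscle and fat cells, with 10.2, 8.87 and 7.15 CPM in rats 61, 71 and 88 and 15.4, 22.8 and 26.8 CPM in rats 64, 67 and 69. Its groups did not overlap, and it passed DESeq2's test (adjusted *P* = 0.0009) but not edgeR's (adjusted *P* = 0.331). In *Aoc3* rats 64 and 67 were above all AL rats, which was the case for 0 of the 8 genes. *Actg2*, the gamma-actin of visceral smooth muscle, *Lmod1*, which starts actin filaments in smooth muscle, and *Myl9* are named after their values were seen. They do not stand for the list, and none of them passed edgeR's test (adjusted *P* = 0.867, 0.690 and 0.932). *Actg2* had 0.079, 1.05 and 8.14 CPM in rats 61, 71 and 88 and 1.02, 0.65 and 16.8 CPM in rats 64, 67 and 69. *Lmod1* had 0.56, 1.66 and 2.78 CPM in the AL rats and 1.36, 1.499 and 7.83 CPM in the HD rats. In *Actg2* and *Lmod1*, rat 61 was the lowest and rat 69 the highest of the 6, as in *Acta2*, *Myh11*, *Cnn1* and *Des*. *Myl9* had 17.7, 40.1 and 33.9 CPM in the AL rats and 13.4, 17.0 and 48.2 CPM in the HD rats. Its lowest rat was rat 64, and its log2 fold change was -0.21.

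Of 25 other pericyte and mesangial genes, 6 were above and 19 below 0 (median -0.55), with 0 adjusted and 2 unadjusted edgeR calls, both lower. *Serpine2*, a protease inhibitor made by mesangial cells, had 10.2, 24.8 and 23.0 CPM in the AL rats 61, 71 and 88 and 2.12, 4.55 and 8.54 CPM in the HD rats 64, 67 and 69, without overlap. *Fhl2*, a partner protein of actin and of transcription factors, had 6.20, 16.4 and 21.8 CPM in the AL rats and 1.61, 2.75 and 6.55 CPM in the HD rats. Both passed DESeq2's test (adjusted *P* = 0.013 and 0.033) but not edgeR's (0.398 and 0.405). Within each group the order of the rats was that of *Pdgfrb* or nearly so, with rat 61 the lowest AL rat and rat 69 the highest HD rat.

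Of 9 regulators of the smooth muscle programme tested, 4 were above and 5 below 0 (median -0.22). *Klf5*, a transcription factor of dividing smooth muscle cells, was the 1 unadjusted edgeR call, at -0.56 (adjusted *P* = 0.406). *Myocd*, the gene of myocardin, was below the minimum count for testing, as were *Tbx18* and *Gata6*, and did not exceed 0.32 CPM in any rat. Of 16 ligands and receptors upstream of the 8 genes, 7 were above and 9 below 0 (median -0.046). The 2 unadjusted calls were *S1pr3*, a receptor for sphingosine-1-phosphate, at -2.43 (edgeR adjusted *P* = 0.398, DESeq2 0.0051) and *Pdgfra*, the receptor of interstitial fibroblasts, at -0.73 (edgeR adjusted *P* = 0.422).

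Markers of other kidney cells were read beside these results, and their part in the results was not tested. None of these markers passed edgeR's adjustment. DESeq2 called 1 of 10 fibroblast, 0 of 15 endothelial, 2 of 10 macrophage and 4 of 13 podocyte markers. It called 3 of 11 proximal tubule, 3 of 11 inner medulla and 0 of 6 urothelium markers. For adipose markers it was 0 of 10 and for striated muscle markers 2 of 7, against 1.58% of all genes. Beside the unadjusted edgeR calls below, 5.94% of all genes were called lower and 4.66% higher. Endothelial markers, like the 8 genes, had their lowest medians in rats 61, 64 and 67. So did the fibroblast and macrophage markers, the other contractile, pericyte and mesangial genes, the regulators and the upstream genes. The summed level of the endothelial markers was 458 to 794 CPM in the AL rats and 287 to 661 CPM in the HD rats. Of 15 endothelial markers, 13 were below 0 (median -0.41), and *Plvap*, of fenestrated capillaries, was the 1 unadjusted call, at -1.98. Of 10 fibroblast markers, 8 were below 0 (median -0.86, summed 195 to 511 CPM in the AL rats and 113 to 254 CPM in the HD rats), with 4 unadjusted calls lower, among them *Dcn* and *Dpt*, and 1 higher, *Pi16*. Of 10 macrophage markers, 10 were below 0 (median -1.39, summed 157 to 519 against 61.9 to 142 CPM), 8 of them unadjusted calls.

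Of 13 podocyte markers, 10 were above 0 (median 0.70, summed 95.3 to 240 against 220 to 487 CPM), with 5 unadjusted calls higher and 1 lower. *Nphs1*, which encodes nephrin of the filtration slit, had 9.77, 13.9 and 10.8 CPM in rats 61, 71 and 88 and 42.0, 59.1 and 74.8 CPM in rats 64, 67 and 69. *Nphs1* was higher in all HD rats than in any AL rat, but it does not stand for the list. Of the 13 markers, 3 were below 0, and 5 were below 0 without rat 69. Among genes that mesangial cells of the glomerulus express, the groups overlapped for *Pdgfrb* and *Itga8*, while *Serpine2* was lower in the HD group without overlap.

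Of 11 proximal tubule markers, 10 were above 0 (median 0.46, summed 15129 to 17486 against 16693 to 22259 CPM, 6 unadjusted calls), and of 11 inner medulla and papilla markers, 0 were above 0 (median -1.02, summed 1566 to 2199 against 1272 to 1473 CPM, 7 unadjusted calls). Of 6 urothelium markers, 4 were above 0 (median 0.22, summed 34.4 to 96.8 against 26.7 to 74.2 CPM), and *Psca* was the 1 unadjusted call, at -2.85. Of 10 adipose markers, 10 were above 0 (median 1.63, summed 907 to 2866 against 3082 to 3992 CPM). *Pck1*, also a gene of the proximal tubule, made up the most of that sum. Without *Pck1* the sums overlapped, at 182 to 309 CPM in the AL rats and 174 to 504 CPM in the HD rats. The HD rat 64 had the lowest adipose median of the 6 rats, at -1.52. *Ucp1*, of brown fat, had 35.7 CPM in rat 67 and 46.8 CPM in rat 69 and at most 4.69 CPM in the other rats. The sum of the 8 genes was 76.6 CPM in rat 67 and 339 CPM in rat 69. The part of fat tissue RNA in the level of the 8 genes was not tested.

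**Figure D5:**
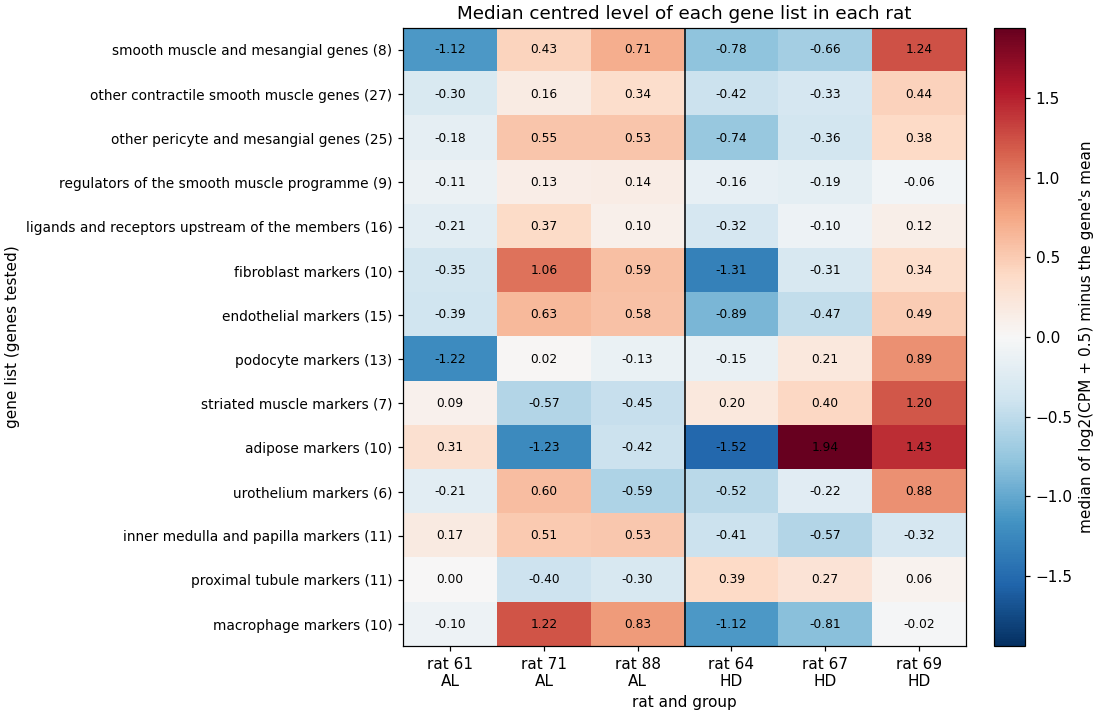
Median, over the tested genes of each list, of the centred log2 level in each rat (columns), with the number of genes tested in brackets. The first line, the 8 smooth muscle and mesangial genes, runs from -1.12 in rat 61 to 1.24 in rat 69, and adipose markers peak in rat 67 at 1.94, where the 8 genes are at -0.66.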

How the data were processed

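Kidney RNA of 3 AL and 3 HD rats, grouped by the diet in the labels, was sequenced with a kit that does not mark strand, so reads of overlapping or antisense genes cannot be told apart. The authors assigned reads with RSEM (version 1.1.15 per the submitters' processing notes) to build rn5 and deposited, per transcript, estimated counts (RSEM's expected counts) without normalization and TPM values scaled to transcript length and library size. Expected counts were summed per gene and rounded, and TPM summed per gene. No column of another sample was present. Genes under 30 counts in every rat were dropped, and the remaining 11553 were tested with edgeR 4.0.16 (R 4.3.3, quasi-likelihood, TMM normalization, diet as the only factor), with Benjamini-Hochberg adjustment over all tested genes. DESeq2 1.42.0, named in the study's methods, was an alternative, as were limma 3.58.1 on log2(TPM + 1), other normalizations and filters, and leaving out each rat. The standard error was the absolute log2 fold change divided by the square root of F. Exact permutation tests compared log2(CPM + 0.5). Every pair of libraries differed by more than sampling noise (chi-square per degree of freedom 24.1 to 81.2). The fits were tested on simulated counts.

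The 8 genes and the lists (contractile, pericyte and mesangial, regulator, upstream, fibroblast, endothelial, podocyte, striated muscle, adipose, urothelium, inner medulla, proximal tubule and macrophage genes) were chosen with earlier results of these data known. Besides the 8, the text names up to 4 genes per list with the smallest unadjusted edgeR *P* values below 0.05. It also names defining markers below the minimum count, and the 6 genes of most similar pattern with a mean of at least 1 CPM. Named outside these rules are *Casq1* and *Pck1*, the most abundant of their lists, and *Actg2*, *Lmod1* and *Myl9*, picked after their values were seen. A further list and its genes are not reported here. Promoter windows came from RefSeq (GRCr8), with no conversion to rn5. Python 3.11.15, pandas 2.3.3, scipy 1.17.1 and matplotlib 3.10.9 were used.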

Additional observations from a re-analysis of the deposited data

How the results depend on the processing

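Of 103 alternative values of the 8 genes' log2 fold changes, 95 kept their direction and 8 reversed, and none passed an adjusted *P* value of 0.05 (0.127 to 0.999 by edgeR, DESeq2 or limma). Leaving out each rat in turn gave -0.59 to 1.29 for *Acta2*, -0.25 to 2.12 for *Myh11*, -1.23 to 0.059 for *Tagln*, -0.77 to 2.13 for *Cnn1*, -0.88 to 0.78 for *Des*, -1.82 to -0.92 for *Pdgfrb*, -1.07 to 0.10 for *Itga8* and -1.86 to -0.20 for *Rgs5*. With limma on log2(TPM + 1), *Des* was at -0.014, and the cause was not tested. Leaving out rat 69 reversed 4 genes, and 3 reversals came from leaving out another rat: *Tagln* was 0.059 without rat 71 and 0.022 without rat 64, and *Itga8* 0.10 without rat 88. Over all genes, edgeR's 0 calls (1224 at an unadjusted *P* value below 0.05) became 182 with DESeq2, 2 with no minimum count and 0 to 4 with a rat left out (2 without rat 61, 4 without rat 64, 2 without rat 67 and 0 without any other). The groups were separate for 0 of the 8 genes in CPM or deposited TPM. In the ratio to *Pdgfrb*, chosen after seeing the data, they were separate for 5 of 7, higher in the HD group. The same held for 24.1% of all genes set against *Pdgfrb*, whose own level enters every ratio. Normalizing by library size alone moved the median of all genes from 0.0067 to -0.074. *Cnn1* was not tested with at least 10 counts in every rat. No paired analysis was possible because the labels give the rats no shared numbers across the groups. The low counts of *Cnn1* and *Rgs5* limit their precision.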
